A study of Mus musculus with 9 samples.

Results

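Ms4a6b, Ms4a6c, Ms4a6d, Ms4a7, Ms4a4a, Ms4a4b, Ms4a4c and Ms4a14 were followed in the main olfactory epithelium together with AW112010 and BE692007, transcripts of the same stretch of chromosome 19 that are annotated as noncoding. These 10 genes, of 55291 in the deposited table, were chosen by their symbols as Ms4a genes with detected reads in this tissue other than Ms4a1. Their detection is therefore a description and was not tested. RNA-seq was made from 3 wild-type C57BL/6 littermates, 3 Ms4a6c-/- mice on C57BL/6 and 3 Ms4a cluster-/- mice on C57BL/6, all aged 8 to 12 weeks. Of which knockout line the wild-type mice were littermates is not given in the sources used here. The Ms4a6c allele was made by homologous recombination in the KOMP program and the cluster allele by a CRISPR/Cas9 deletion. Both alleles are carried by the whole animal, in neurons and blood-borne cells alike.

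MS4A proteins cross the membrane 4 times. Members of the family include CD20 on B cells, encoded by Ms4a1, and the β-chain of the high-affinity IgE receptor, encoded by Ms4a2. In the nose, MS4A proteins have been described in necklace sensory neurons, a small population that carries the guanylate cyclase Gucy2d in place of the usual odorant receptor pathway. Outside the nose, Ms4a6 genes, Ms4a7 and Ms4a4a are known from macrophages and monocytes, and Ms4a4b from T cells. In bulk tissue, fewer cells of a type and less RNA per cell cannot be told apart, and neither can the cell type that a transcript came from.

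All 10 genes lie on chromosome 19 of GRCm38 between positions 11047612 and 11604849, a span of 557.2 kb, with 5 genes on each strand. Ms4a6b (chr19:11516512-11531256), Ms4a6c (chr19:11469366-11482192) and Ms4a6d (chr19:11586604-11604849) are close relatives. The coding sequence of Ms4a6b was identical to that of Ms4a6d at 593 of the 741 bases of the longer one and 74.9% identical to that of Ms4a6c. Ms4a4b and Ms4a4c were 91.7% identical. The following coding exons of 135 bases, read from the annotated transcripts 5′ to 3′ in the direction of the gene, are shown because they are the most alike among the Ms4a6 genes and bear on whether a read can be given to 1 gene. Capitals mark the bases that differ from Ms4a6c.
Ms4a6c exon 3 of 7, chr19:11472393-11472527, plus strand: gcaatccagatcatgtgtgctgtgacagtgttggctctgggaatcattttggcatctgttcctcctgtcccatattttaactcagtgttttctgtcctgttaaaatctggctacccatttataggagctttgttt
Ms4a6b exon 4 of 8, chr19:11521671-11521805, plus strand: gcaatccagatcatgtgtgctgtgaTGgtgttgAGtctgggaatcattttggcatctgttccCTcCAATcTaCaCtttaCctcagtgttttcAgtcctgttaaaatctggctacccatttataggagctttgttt
Ms4a6d exon 3 of 7, chr19:11601830-11601964, minus strand: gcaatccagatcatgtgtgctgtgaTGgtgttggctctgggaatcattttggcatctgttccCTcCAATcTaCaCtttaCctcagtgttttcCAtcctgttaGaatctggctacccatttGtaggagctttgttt
Ms4a6b differed from Ms4a6c at 15 bases of this exon and Ms4a6d at 16, while Ms4a6b and Ms4a6d were 95.6% identical to each other. No window of 150 bases, the read length, was shared letter for letter on the same strand between any of the 10 genes and another annotated gene. With windows of 50 bases, 10.54% of those of Ms4a6c and 3.57% of those of Ms4a6b were found in another gene.

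BE692007 (chr19:11470166-11484578) runs on the minus strand across Ms4a6c. Its exons cover 1088 of the 1841 bases of the longest Ms4a6c transcript, or 59.1%, in exons 6 and 7. Exon 6 of Ms4a6c, 101 coding bases at chr19:11480299-11480399 on the plus strand, is shown because all of it lies opposite an exon of BE692007.
Ms4a6c exon 6 of 7: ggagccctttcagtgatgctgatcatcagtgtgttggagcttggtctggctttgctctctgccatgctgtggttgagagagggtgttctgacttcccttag
When strand was ignored, 44.24% of the 150-base windows of Ms4a6c and 16.31% of those of BE692007 were shared between them. The library kit marks strand, but whether the counting used it is not given in the sources used here.

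Promoters of 300 bases (250 before and 50 after the RefSeq start, GRCm38.p6) were available for 9 of the 10 genes. The letters GAAANNGAA, part of the interferon response element, were sought on both strands and were present in 8.6% of 32851 promoters. Among the 10 promoters of the 9 genes they were in 4, those of Ms4a6b and Ms4a6c and both of Ms4a7. The letters GAGGAA, the core of the element bound by the myeloid factor PU.1, were in 28.3% of all promoters. They were in 5 of the 10 promoters of the 9 genes, each of a different gene. Both sets of letters can share bases where they adjoin. The 80 bases around the GAAANNGAA match, 5′ to 3′ in the direction of the gene with the match in capitals, are shown because Ms4a6b and Ms4a6c carry it in a similar setting.
Ms4a6c, chr19:11469199-11469278, plus strand: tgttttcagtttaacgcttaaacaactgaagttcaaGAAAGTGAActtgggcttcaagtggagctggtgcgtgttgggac
Ms4a6b, chr19:11518317-11518396, plus strand: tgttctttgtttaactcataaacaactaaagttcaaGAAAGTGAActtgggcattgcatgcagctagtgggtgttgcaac
Ms4a7, first start, chr19:11336174-11336253, minus strand: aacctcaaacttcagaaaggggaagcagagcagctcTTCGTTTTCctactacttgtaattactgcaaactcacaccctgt
Ms4a7, second start, chr19:11334800-11334879, minus strand: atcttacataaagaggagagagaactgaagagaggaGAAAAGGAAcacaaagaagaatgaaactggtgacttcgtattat
The Ms4a6b and Ms4a6c stretches were identical at 64 of 80 bases without gaps, with the match 206 bases before the start of Ms4a6b and 133 before that of Ms4a6c. In the first Ms4a7 promoter the capitals read on the opposite strand. A match of letters does not show that a factor binds there.

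The libraries held between 13954591 and 21987174 expected counts, that is, read counts that the counting program estimates per gene. Wild-type mouse 1 and cluster knockout mouse 2 stood apart by secretory transcripts. The summed level of 11 nasal gland genes was 306790 and 329950 counts per 1000000 (CPM) there, against 3186 to 35199 CPM in the other 7 mice. CPM values below are scaled by TMM, edgeR's correction for such skewed libraries, with factors of 0.702 and 0.704 for these 2 mice and 1.07 to 1.13 for the rest. Results that rest on wild-type mouse 1 are given with and without it.

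All 10 genes were rare transcripts in wild-type epithelium, together 18.0 CPM ± 0.35 (SD, n = 3). Per kilobase of annotated exon, AW112010 was the highest at 3.05 CPM per kb ± 0.58 (SD, n = 3), followed by Ms4a6c at 2.19 ± 0.29. Ms4a6d at 0.948 ± 0.108 and Ms4a7 at 0.937 ± 0.120 could not be ordered, since their ranges over the 3 mice overlapped. Ms4a6b stood at 0.695 ± 0.123, Ms4a4a at 0.447 ± 0.272 and Ms4a4c at 0.277 ± 0.116 CPM per kb, and the ranges of neighbours overlapped here too. BE692007, Ms4a14 and Ms4a4b were the lowest, at 0.127 ± 0.026, 0.108 ± 0.052 and 0.0182 ± 0.0069 CPM per kb. The place of Ms4a7 depended on the length used: over its longest spliced transcript of 1576 bases, against 4453 bases of exon in all, it stood at 2.65 CPM per kb ± 0.34 (SD, n = 3) and ranked 2 of 10. On that length AW112010 stood at 3.19 ± 0.61 and Ms4a6c at 2.44 ± 0.33, and the ranges of Ms4a7 overlapped both. BE692007 moved further, from 0.127 to 0.697 CPM per kb ± 0.145 over its longest spliced transcript of 954 bases, from rank 8 to rank 6. Spliced transcripts were here those annotated as protein-coding, long intergenic noncoding or antisense. The longest annotated transcript of any kind has 3607 bases for Ms4a7 and 4331 for BE692007, and with that length 0 genes changed rank.

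**Figure D1:**
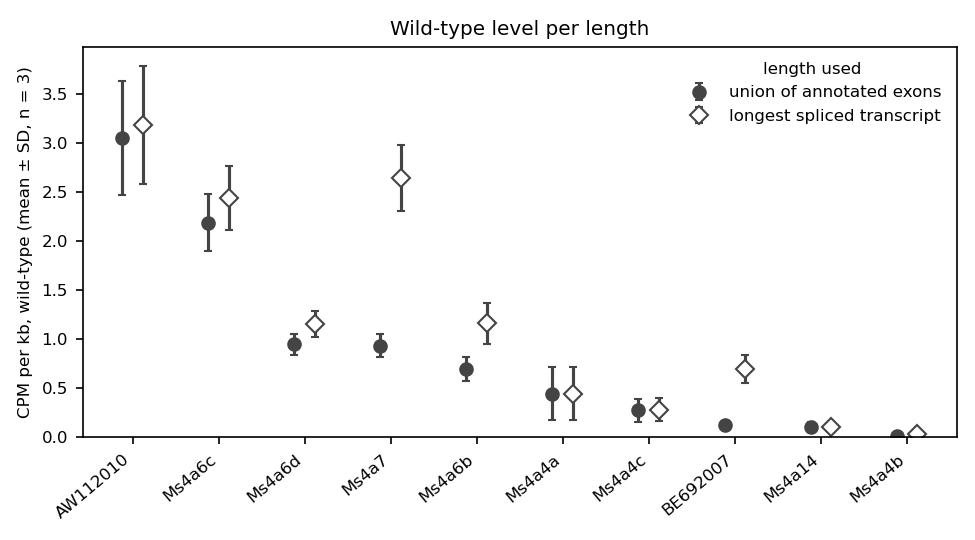
Wild-type level of each gene in CPM per kb (mean ± SD over 3 mice), by the union of annotated exons (filled circles) and by the longest spliced transcript (open diamonds). AW112010 has the highest mean by either length, though its range overlaps that of Ms4a7 by the spliced length, where Ms4a7 moves from 0.937 to 2.65 and BE692007 from 0.127 to 0.697 CPM per kb.

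The tissue held transcripts of more than 1 cell type in which Ms4a genes are known. The necklace neuron list of Gucy2d, Car2, Pde2a and Cnga3 summed to between 89.3 and 94.9 CPM in wild-type mice, of which Car2 alone, a carbonic anhydrase, held 73.1 CPM ± 2.33 (SD, n = 3). Of the rest of this list, Pde2a stood at 15.7 CPM ± 2.18, Gucy2d at 2.32 CPM ± 0.35 and Cnga3 at 0.310 CPM ± 0.158. The 14 macrophage genes, led by Csf1r, Adgre1 and C1qa, were all at 1 CPM or more on average and summed to between 177 and 197 CPM. Of 14 T and NK cell genes, 2 reached 1 CPM. The share of each Ms4a transcript that came from each of these cells was not tested.

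The cluster deletion was read first, because it checks the labels. Each of the 10 genes had 0 counts in all 3 mice of this genotype. Among wild-type animals, 8 of the genes were above 3 counts in every one, and all 10 were above 3 in at least 1. Taking the limit of 3 counts per library as the most that could have been missed, the decrease was at least 22.5-fold for Ms4a6c, 20.9-fold for Ms4a7 and 15.6-fold for Ms4a6b. It was at least 12.3-fold for AW112010 and 8.23-fold for Ms4a6d. The bounds for BE692007, Ms4a4c and Ms4a14 were 3.33-fold, 2.43-fold and 2.20-fold, since a few reads per library cannot show more. Ms4a4a and Ms4a4b had wild-type mice at or under 3 counts.

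AW112010 is separated from Ms4a14, its nearest neighbour among the 10, by other genes of the cluster. Of 15 other genes of the cluster, 7 were at 0 in all 9 mice and all 15 were at 0 in the cluster knockout mice. Ms4a3, expressed in myeloid precursors, had 5, 13 and 10 counts in wild-type and 7, 10 and 22 in Ms4a6c knockout mice, more than the least detected of the 10 genes although it is not among them. Ms4a1 had 10, 10 and 14 counts in wild-type and 13, 26 and 8 in Ms4a6c knockout mice, and Gm8369 had 1 to 5 counts in these 6 mice. The quasi-likelihood test in edgeR, at a Benjamini-Hochberg adjusted p under 0.05, called 5 genes lower in the cluster knockout among 23225 tested, a background of 0.0215%, and all 5 were among the 10: Ms4a6b, Ms4a6c, Ms4a6d, Ms4a7 and AW112010. A gene of the deleted stretch could pass the filter on low counts only through the mice that keep it, so this count describes the allele and nothing is read from it. It was 2 without wild-type mouse 2 or 3, and 3 without cluster knockout mouse 1 or 3. The replicate number as a block left 1, Ms4a7.

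**Figure D2:**
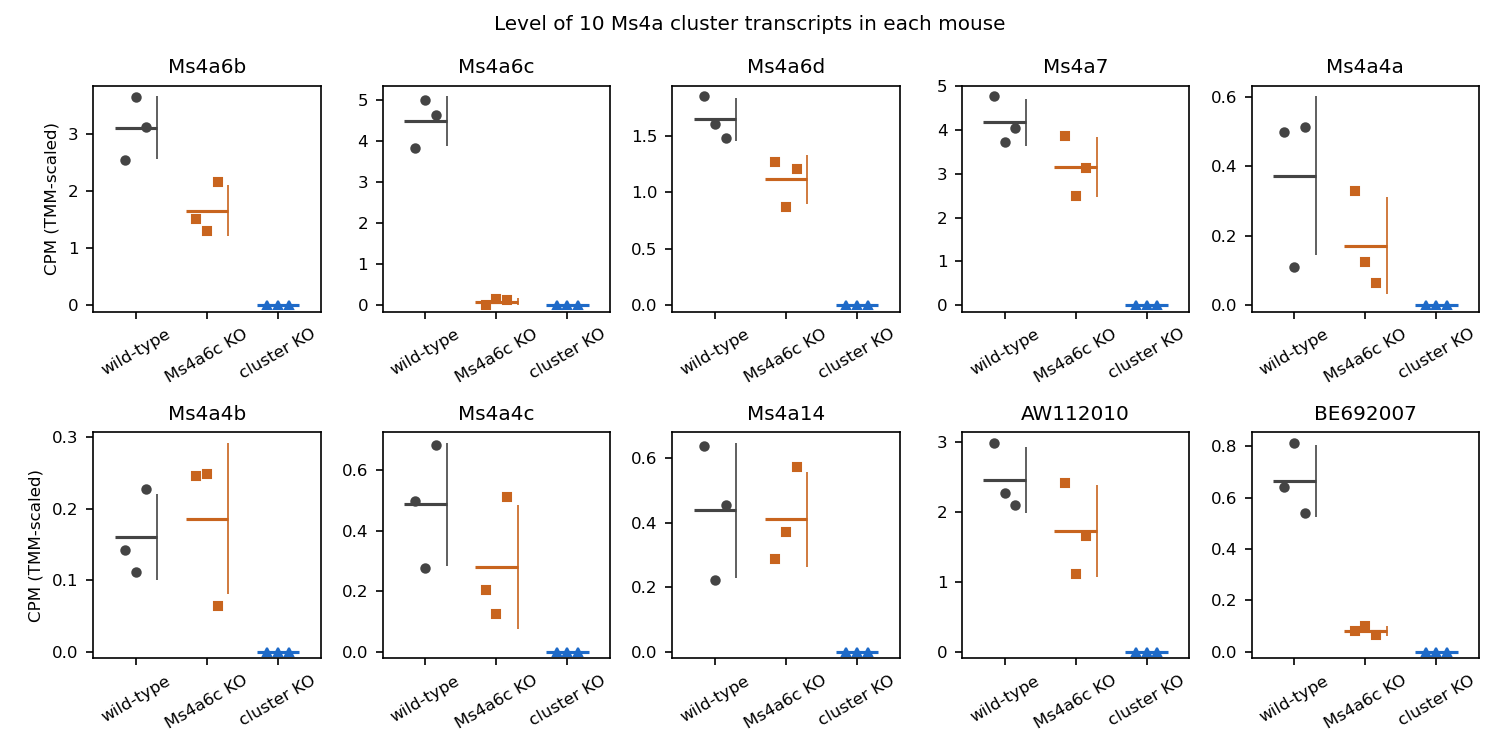
TMM-scaled CPM of each gene in each of the 9 mice, 1 panel per gene with its own axis from 0 (circles wild-type, squares Ms4a6c knockout, triangles cluster knockout; horizontal lines means, vertical lines ± SD, n = 3). The cluster knockout mice are at 0 in all 10 panels. In the Ms4a6c knockout, Ms4a6c is at most 0.146 CPM and BE692007 at most 0.102 CPM. Single knockout mice are about as low for other rare genes, down to 0.0637 CPM for Ms4a4a and Ms4a4b and 0.124 CPM for Ms4a4c.

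In Ms4a6c knockout mice the targeted gene was nearly absent, BE692007 had lower values that did not pass the test, and the other 8 genes were still detected. Ms4a6c had 53.95, 90.34 and 81.53 expected counts in the wild-type mice and 0, 2.35 and 2 in the knockout mice. The groups did not overlap. Ms4a6c fell by 5.81 on the log2 scale (SE 0.57, n = 3 per genotype, edgeR adjusted p = 0.00342), and was the only 1 of the 10 genes called, where 50 genes or 0.215% of all tested were called lower. Over the 3 mice the knockout held 4 counts against 226 in wild-type, which after scaling the pooled libraries by depth and TMM is 1.56% of the wild-type level (exact 95% interval 0.42% to 4.06%, counting error only).

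BE692007 had 9.05, 14.66 and 9.47 expected counts in wild-type, and 2, 1.65 and 1 in Ms4a6c knockout mice. Every knockout mouse was below every wild-type mouse, as for 8.55% of all tested genes on the TMM scale and 1.54% with plain library size. Its log2 difference was -2.79 (SE 0.59; unadjusted p = 0.00143, edgeR adjusted p = 0.135), which did not pass the threshold. The 5 counts of the knockout against 33 correspond, scaled in the same way, to 13.4% of the wild-type level, with an exact 95% counting interval of 4.08% to 34.5%.

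The counts of these 2 genes could not be separated. Among the 10 genes only Ms4a6c and BE692007 had fractional expected counts, which arise when the counting program divides a read between genes, and none of the 15 other cluster genes had any. Their sum was whole in every mouse: 63, 105 and 91 in wild-type, 2, 4 and 3 in Ms4a6c knockout and 0 in cluster knockout mice. BE692007 held 12.9% ± 2.18 (SD, n = 3) of that sum in wild-type mice. With both counted as 1 gene, the fall was 4.92 on the log2 scale (edgeR adjusted p = 0.000757), and the scaled level in the knockout was 3.07% of that in wild-type (exact 95% interval 1.39% to 5.92%). Because reads of an overlapping antisense pair were shared out, the level of BE692007 in either genotype is uncertain.

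**Figure D3:**
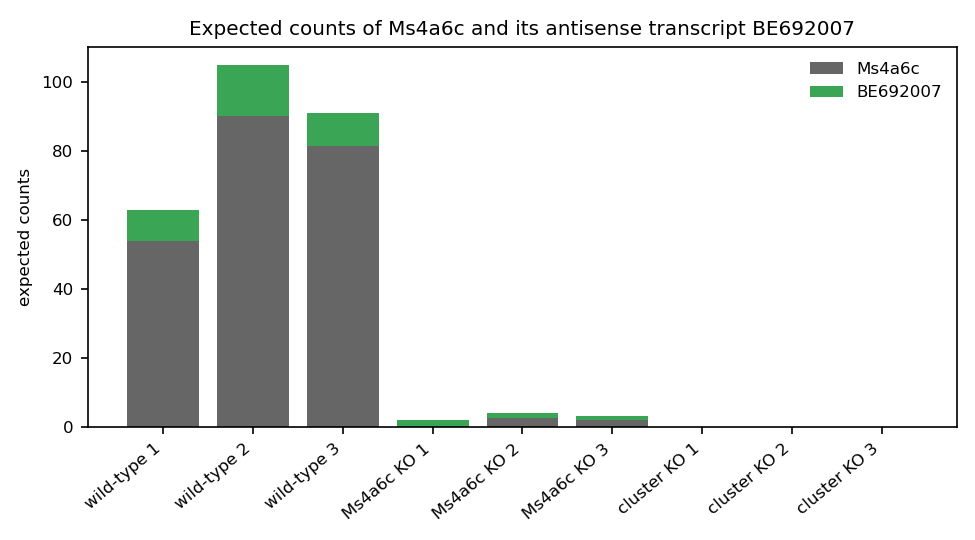
Expected counts of Ms4a6c (grey) and BE692007 (green), stacked, in each of the 9 mice. The wild-type sums are 63, 105 and 91, the Ms4a6c knockout sums 2, 4 and 3, and the cluster knockout sums 0.

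Among the relatives of Ms4a6c, Ms4a6b and Ms4a6d had lower values in each Ms4a6c knockout mouse than in any wild-type mouse on the TMM scale, as did 8.55% of all tested genes, and neither passed the test. Ms4a6b stood at 2.56, 3.66 and 3.13 CPM in wild-type and at 1.516, 1.303 and 2.166 CPM in Ms4a6c knockout mice. Its log2 difference was -0.91 (SE 0.29; unadjusted p = 0.0129, edgeR adjusted p = 0.302), and 10.5% of all tested genes had an unadjusted p under 0.05. Ms4a6d stood at 1.85, 1.61 and 1.48 CPM in wild-type and at 1.27, 0.868 and 1.21 CPM in the knockout. Its log2 difference was -0.55 (SE 0.31; edgeR adjusted p = 0.575).

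Counted together, Ms4a6b and Ms4a6d came to 4.41, 5.27 and 4.61 CPM in wild-type and 2.79, 2.17 and 3.38 CPM in Ms4a6c knockout mice, a difference of -1.98 CPM. The expected counts of both genes were whole in every mouse (within 0.004), which leaves no sign of reads divided between them or with Ms4a6c. With plain library size the difference was -1.60 CPM, and wild-type mouse 1 then stood at 3.09 CPM, within the range of the knockout mice. On that scale, where 1.54% of all tested genes had every knockout mouse below every wild-type mouse, the groups overlapped for each gene alone, with wild-type mouse 1 at 1.80 CPM of Ms4a6b and 1.297 CPM of Ms4a6d, against up to 2.44 and 1.41 CPM in the knockout. Without wild-type mouse 1, Ms4a6b had a log2 difference of -1.03 (edgeR adjusted p = 0.262), and its adjusted p ranged from 0.227 to 0.952 over 17 alternatives.

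Ms4a7, a gene of tissue macrophages and microglia, stood at 4.76, 3.72 and 4.04 CPM in wild-type and at 3.85, 2.48 and 3.12 CPM in Ms4a6c knockout mice. The groups overlapped, and the log2 difference was -0.39 (SE 0.23; edgeR adjusted p = 0.599). It narrowed to -0.18 with plain library size and to -0.29 without wild-type mouse 1, and was -0.26 without Ms4a6c knockout mouse 2.

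The Ms4a4 genes and Ms4a14 were close to the limit of detection. Ms4a4a, known from alternatively activated macrophages, had 7, 2 and 9 counts in wild-type and 8, 2 and 1 in Ms4a6c knockout mice. Ms4a4b had 1 to 6 counts in each of these 6 mice, and Ms4a4c 2 to 12. Ms4a14 had 9, 4 and 8 counts in wild-type and 7, 6 and 9 in the knockout. The groups overlapped for all 4 genes, with log2 differences from -0.98 (SE 0.81) for Ms4a4a to 0.24 (SE 0.74) for Ms4a4b and edgeR adjusted p-values of at least 0.723. The SEs of these 4 genes ran from 0.58 to 0.81, against a difference of -0.91 for Ms4a6b that itself did not pass the test. Whether a change of that size could be detected in them at this depth was not tested. The direction for Ms4a14 turned with plain library size, from -0.10 to 0.16.

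AW112010, annotated as noncoding and known to be induced in immune cells by interferon and bacterial products, stood at 2.99, 2.27 and 2.10 CPM in wild-type. In Ms4a6c knockout mice it stood at 2.42, 1.12 and 1.66 CPM. The groups overlapped. Its log2 difference was -0.48 (SE 0.34; edgeR adjusted p = 0.662). Single mice moved it: it was -0.32 without wild-type mouse 1, -0.82 without Ms4a6c knockout mouse 1 and -0.26 without Ms4a6c knockout mouse 2.

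**Figure D4:**
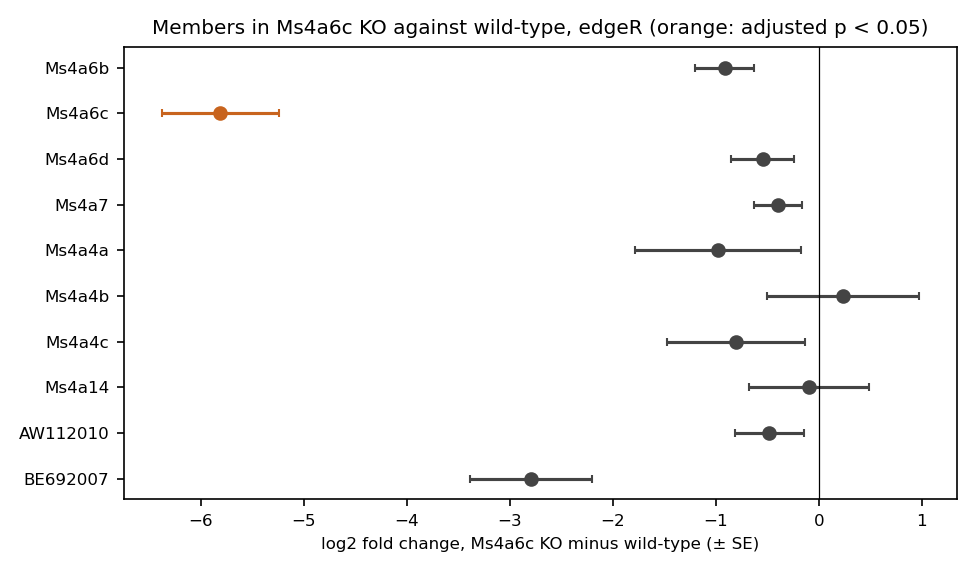
Log2 fold change of each gene in Ms4a6c knockout against wild-type mice, with its SE (edgeR, 3 mice per genotype). Ms4a6c, at -5.81, is the 1 gene with an adjusted p under 0.05 (orange), and 7 of the 8 genes other than Ms4a6c and BE692007 lie below 0, of which Ms4a14 turns to 0.16 with plain library size.

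The 8 genes kept in the Ms4a6c knockout summed to 13.9, 12.0 and 12.6 CPM in wild-type and 10.1, 6.64 and 9.36 CPM in knockout mice, a difference of -4.14 CPM. These sums did not overlap, and on this scale 8.55% of all tested genes taken singly had every knockout mouse below every wild-type mouse. With plain library size the difference was -2.71 CPM and the sums overlapped, since wild-type mouse 1 then stood at 9.78 CPM. The median log2 fold change over all 23225 genes was -0.002.

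Marker genes of other cell types were read in the same mice. The 14 macrophage genes summed to between 177 and 197 CPM in wild-type and between 153 and 167 CPM in Ms4a6c knockout mice. These sums are on the TMM scale, with wild-type mouse 1 at 179 CPM, and were not computed with plain library size. On the TMM scale 8.55% of all tested genes had every knockout mouse below every wild-type mouse. The median log2 difference of the macrophage genes was -0.17, with 12 of 14 below 0, where 50.3% of all tested genes were. The 10 interferon-stimulated genes had a median of -0.38 with 9 of 10 below 0, and the 5 MHC class II genes a median of -0.27 with all 5 below 0. Other lists had medians above 0: 1.21 for red blood cell, 0.87 for neutrophil, 0.73 for B cell, 0.61 for monocyte, 0.22 for sustentacular cell, 0.14 for dendritic cell, 0.12 for all leukocytes, 0.06 for mature sensory neuron and 0.03 for T and NK cell genes. The necklace list stood at -0.03 and the nasal gland list, which wild-type mouse 1 dominates, at -4.04. edgeR called none of the genes in these 14 lists in either direction. An unadjusted p under 0.05, held by 10.5% of all tested genes, was found for 4 of 14 macrophage genes, of which Csf1r, C1qc and Aif1 had lower values and Cd163 higher ones. It was found for 4 of 10 interferon-stimulated, 4 of 4 red blood cell, 4 of 6 neutrophil, 3 of 5 monocyte, 3 of 5 sustentacular, 3 of 11 nasal gland and 1 of 4 necklace genes, and for none of the other 6 lists. DESeq2 called 1 interferon-stimulated, 1 neutrophil and 1 sustentacular gene lower and 2 sustentacular genes higher. With the macrophage score in the model the log2 difference was -0.92 for Ms4a6b and -0.72 for Ms4a6d, and Ms4a6c, at -5.59, had an adjusted p of 0.0937, the highest of its 17 alternatives, which began at 9.4e-11. In this fit AW112010 stood at -1.05 and Ms4a7 at -0.61, while Ms4a4b, Ms4a4c and Ms4a14 turned direction. The score was the mean log2(CPM + 0.5) of the 14 genes, less its mean over the 9 mice. It lay from -0.054 to 0.033 in wild-type and from -0.204 to -0.096 in Ms4a6c knockout mice. Score and genotype therefore cannot be told apart in these mice. Whether the markers take part in the lower values of the Ms4a genes was not tested.

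Co-variation was examined in the 6 mice that keep the genes, among the 4 genes with at least 10 counts in each, on log2(CPM + 0.5). Ms4a7, AW112010 and Ms4a6d varied together over these 6 mice. Ms4a7 and AW112010 had Pearson r = 0.97 (exact permutation p = 0.0069, adjusted 0.0278 over 6 pairs) and Spearman rho = 0.83 (p = 0.0583, adjusted 0.117, exact). Ms4a6d had r = 0.93 with Ms4a7 (exact permutation p = 0.0111) and 0.92 with AW112010 (exact permutation p = 0.0139), both 0.0278 after adjustment and with the same rho. With any 1 of 5 of the 6 mice left out, the adjusted p for r was 0.05 or more for all 3 pairs (up to 0.25, without Ms4a6c knockout mouse 2), and it was 0.0333 without Ms4a6c knockout mouse 1, with 5 mice and r from 0.78 to 0.99 throughout. With each genotype's mean subtracted these 3 values of r were 0.96, 0.88 and 0.93.

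On the TMM scale, Ms4a6c knockout mouse 2 was the lowest for all 3 genes and wild-type mouse 1 the highest. Without these 2 mice r was 0.82 for Ms4a7 with AW112010, 0.57 for Ms4a6d with Ms4a7 and 0.47 for Ms4a6d with AW112010, so the relations of Ms4a6d rest on those mice. Without wild-type mouse 1 alone, r was 0.96, 0.89 and 0.87. With plain library size, wild-type mouse 1 was not the highest for any of the 3 genes, and r was 0.93, 0.90 and 0.87. On the TMM scale Ms4a6b followed less closely, with r = 0.78 to Ms4a6d, 0.58 to Ms4a7 and 0.53 to AW112010 (exact permutation, adjusted p from 0.098 to 0.283). With genotype means subtracted these became 0.21, -0.11 and -0.03. With plain library size the 3 values of Ms4a6b were 0.88, 0.67 and 0.54.

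**Figure D5:**
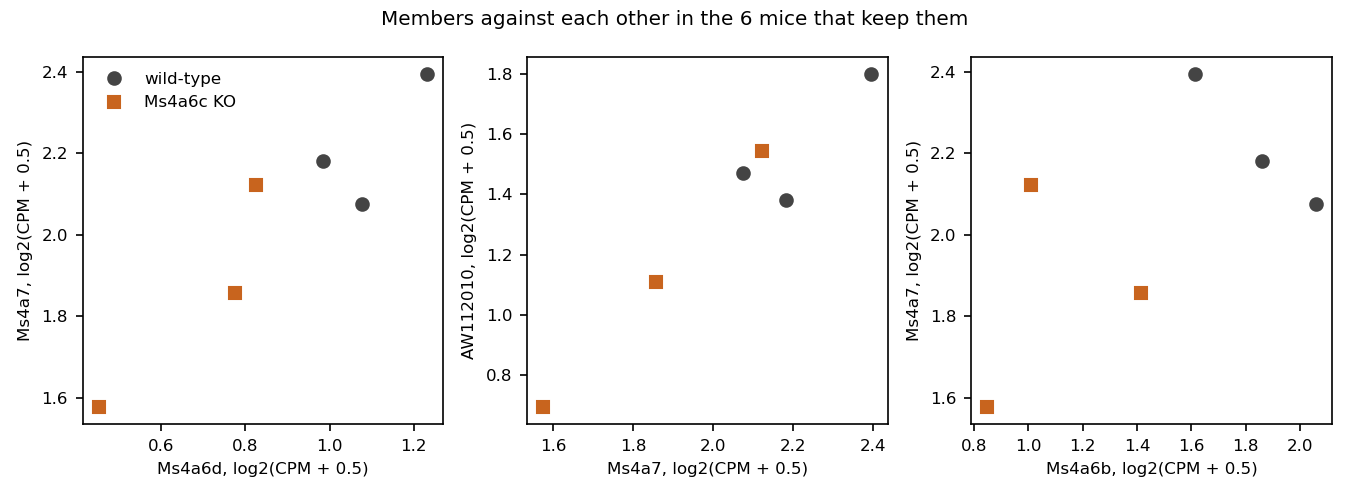
Log2(CPM + 0.5) of Ms4a7 against Ms4a6d, AW112010 against Ms4a7 and Ms4a7 against Ms4a6b in the 3 wild-type (circles) and 3 Ms4a6c knockout mice (squares). The first 2 panels have r = 0.93 and 0.97, and the third r = 0.58.

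Correlations with marker scores were lower than those among Ms4a7, AW112010 and Ms4a6d. A score was the mean log2(CPM + 0.5) of the list genes with a mean of at least 1 CPM over the 9 mice. All 14 macrophage genes entered, but only 2 of the 14 T and NK cell genes, Lck and Ccl5, both close to 1 CPM. Against the macrophage score r was 0.73 for Ms4a6b, 0.63 for Ms4a6d, 0.50 for Ms4a7 and 0.33 for AW112010. Against the T and NK cell score it was 0.07, 0.34, 0.56 and 0.55. None of the 8 relations passed the adjustment (exact permutation, smallest adjusted p = 0.507), and rho ranged from 0.03 to 0.77. The values moved with single mice. Without the 2 mice farthest from the median score, r was 0.58, 0.92, 0.98 and 0.95 against the macrophage score and -0.71, -0.78, -0.47 and -0.31 against the T and NK cell score, in the same order of genes. With genotype means subtracted the macrophage values were -0.03, -0.29, -0.28 and -0.48. Whether the difference between these relations and those among the genes exceeds chance was not tested.

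Across 12770 genes with at least 5 CPM, those whose pattern over the 6 mice was most like that of the 8 summed genes included Snap23, a SNARE protein of vesicle fusion (r = 0.985), Pithd1 (0.979), Adora2b, an adenosine receptor (0.977), and Psmd6, a proteasome subunit (0.975). With only 6 mice, 161 of these genes, or 1.26%, had r above 0.9, and none of the genes named here belongs to the marker lists. By list, the median r was 0.80 for 6 interferon-stimulated genes, 0.74 for 4 MHC class II genes, 0.48 for 11 nasal gland genes and 0.43 for 12 macrophage genes, against 0.0 over all genes. It was -0.88 for 5 sustentacular, -0.81 for 4 red blood cell, -0.63 for 3 neutrophil, -0.60 for 7 mature sensory neuron, -0.48 for 4 monocyte and -0.28 for 4 genes of all leukocytes. For 2 necklace genes, at -0.69 and 0.68, the median was -0.01, and the 1 dendritic cell gene compared had -0.47. Wild-type mouse 1 dominates the nasal gland genes here too. The mice share genotype and library composition, so these values are descriptions.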

How the data were processed

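Main olfactory epithelium of 9 mice was profiled with directional poly-A libraries. Per the labels and methods, the authors aligned paired-end reads with STAR 2.6.1 and quantified them with RSEM 1.3.1 on GENCODE M25 (GRCm38) in DolphinNext, and deposited expected counts for each gene and mouse with no normalization. Their own comparison used DESeq2 1.30.1, and the submitters' processing notes also list R 4.0.0.

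Expected counts were rounded, and 23225 genes with at least 10 counts over the 9 mice were tested in 1 model with edgeR 4.0.16 (quasi-likelihood, TMM, Benjamini-Hochberg, R 4.3.3). DESeq2 1.42.0 was an alternative. The procedure was checked on simulated counts. Changes were planted there only in genes with a higher mean level than most of the 10 genes have. Recovery at the lower levels was not checked. Correlations used scipy with all 720 pairings, and those between the genes were added after the data were seen. Positions and transcripts were read from the M21 release of GENCODE (also GRCm38), in which all transcripts of the 10 genes were found, and promoters from RefSeq.

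The genes, marker lists and tests were chosen with earlier results of these data known. The genes named were the 10, other cluster genes above 3 counts in at least 2 mice, list markers, and the 5 most alike in pattern, of which 1 is not reported here. Replicate numbers are those of the labels. Same-numbered wild-type and Ms4a6c knockout mice did not deviate together (mean r = -0.03), so no pairing was used. Without molecular identifiers, PCR copies cannot be recognised and the intervals and limits reflect counting alone.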

Additional observations from a re-analysis of the deposited data

How the results depend on the processing

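Of the 17 alternatives for each knockout, the count of genes called in the Ms4a6c knockout stayed at 1 (Ms4a6c) in all but the fit with the macrophage score as a covariate, where it was 0, and leaving out each mouse gave 1 to 1. The log2 difference of Ms4a14, -0.10 in edgeR, turned to 0.16 with plain library size, 1.15 with the macrophage covariate, 0.25 without wild-type mouse 1 and 0.12 without Ms4a6c knockout mouse 1. That of Ms4a4b, 0.24, turned to -0.04 with the covariate, -0.04 without Ms4a6c knockout mouse 1 and -0.47 when its counts were added to those of Ms4a4c, and that of Ms4a4c turned to 0.47 with the covariate. Leaving out each mouse gave -0.42 to 0.25 for Ms4a14 and -0.04 to 0.6 for Ms4a4b. None of these values passed the test. In the cluster knockout, where all 10 genes are at 0, the 5 calls became 1 with the replicate number as a block, 1 with the macrophage covariate and 2 with the 2 compared genotypes alone, and 2 to 5 when each mouse was left out. They became 2 (Ms4a6b and Ms4a7) without wild-type mouse 2 or 3 and 3 (Ms4a6b, Ms4a6d and Ms4a7) without cluster knockout mouse 1 or 3. The cause was not tested. Same-numbered wild-type and cluster knockout mice had a mean correlation of -0.38 between their deviations from the group means, so the block has no support as a pairing, and with the block the Ms4a6c knockout still had 1 call. The difference in summed CPM between Ms4a6c knockout and wild-type ranged from -4.85 to -3.1 for the 8 kept genes and from -2.28 to -1.68 for Ms4a6b with Ms4a6d when each mouse was left out. In the order per length 7 genes changed rank with the longest spliced transcript, a length chosen after the data were seen, and 0 to 4 when a wild-type mouse was left out. The highest share of read-length windows found in another gene rose from 0 to 1.66% with 100 bases, 10.54% with 50 bases and 44.24% with both strands. With genotype means subtracted, the correlations with the macrophage score turned to -0.03 for Ms4a6b, -0.29 for Ms4a6d, -0.28 for Ms4a7 and -0.48 for AW112010, and those of Ms4a6b with Ms4a7 and AW112010 to -0.11 and -0.03. When each mouse was left out, the macrophage values ranged from 0.65 to 0.86 for Ms4a6b, 0.47 to 0.8 for Ms4a6d, 0.28 to 0.91 for Ms4a7 and 0.05 to 0.81 for AW112010, and the T and NK cell values from -0.83 to 0.45 for Ms4a6b, -0.63 to 0.55 for Ms4a6d, -0.11 to 0.7 for Ms4a7 and -0.18 to 0.68 for AW112010, with the lowest of each without Ms4a6c knockout mouse 2. Counts of 1 to 15 reads per mouse limit what can be said of Ms4a4a, Ms4a4b, Ms4a4c, Ms4a14 and BE692007.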
